A study of Mus musculus with 4 samples.

Results

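Induced pluripotent stem (iPS) cell lines 7 and 13, both derived from bone marrow mononuclear cells (BMMNCs), were compared directly. Each was measured on 1 array, so the comparison uses 2 of the 4 arrays of the study. The other arrays, of E14 embryonic stem (ES) cells and of BMMNCs, are given beside the lines as reference levels. Lines 7 and 13 came from C57BL/6 mice carrying an Oct4-EGFP transgene, a green fluorescent reporter of the pluripotency gene Oct4. The BMMNCs were of strain C57BL/6 and the ES cells of strain 129, and neither is labelled with the transgene. The iPS and ES cells were grown on irradiated mouse embryonic fibroblasts (MEFs) with serum and leukemia inhibiting factor, and the feeder cells were reduced by plating on gelatin before RNA was taken. The passage number, sex, time of harvest and factors used for reprogramming are not given in the sources used here. Because a line is represented by 1 array, differences are given as sizes with no p-value. Culture, RNA preparation, labelling and line cannot be told apart.

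An iPS line is expanded from a reprogrammed somatic cell and is expected to carry the transcription factor network of ES cells, in which Oct4 (gene Pou5f1), Sox2, Klf4 and their partners sustain each other. Lines made in parallel can still differ in the small share of cells that drift towards early embryonic lineages, such as trophectoderm, the outer epithelium of the blastocyst, or towards a rare state that resembles the 2-cell embryo. They can also differ in the number of feeder cells carried over. Keratin 8 and keratin 18, which pair to form the first intermediate filaments of the embryo, are known as markers of trophectoderm and of simple epithelia. Zscan4c and Tcstv1 are known as markers of the 2-cell-like state in mouse ES cultures.

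A level below is the log2 processed signal of a probe minus the 75th percentile of its array, and a difference is the level in line 7 minus that in line 13. Levels were read only within a probe, since probes differ in brightness. Of 41160 probes compared, 22814 were well above background, by the mark of the scanner software, on both lines, 1474 in line 7 only, 273 in line 13 only and 16599 in neither. The probes stood for 33378 genes or transcripts, 16356 of them with a gene symbol, and a gene with several probes was given by the probe with the highest mean signal over both lines. The 75th percentile of the processed signal was 1068 in line 7 and 1070 in line 13, and all 4 arrays lay on 1 slide with 1 scan time. Error was judged in 3 ways: from probes printed 10 times on each array (median SD between spots of 0.059 in line 7 and 0.058 in line 13), from the scanner software's own error (median 0.20 for a difference), and from genes with several probes. Only the first rests on replicate spots. The software's error is a modelled value, at least 0.204 in all listed genes well above background on both lines. The SD of the difference was 0.107 at mean levels of 0 or more. None of the 3 ways covers the spread between cultures.

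The 2 lines were nearly alike, and the clearest differences were in the keratin pair Krt8 and Krt18, which were higher in line 7. Across the 22814 probes well above background on both lines, the levels correlated with a Pearson r of 0.998, a description across probes that share both arrays. The SD of the difference was 0.18 and its median -0.02, and 94.8% of probes lay within 1.25-fold. At least 2-fold higher were 24 probes in line 7 (0.105% of those compared) and 38 in line 13 (0.167%). At least 1.5-fold higher were 89 probes in line 7 (0.39%) and 151 in line 13 (0.662%). Counted by gene, 19 were at least 2-fold higher in line 7 (0.108% of 17549) and 33 in line 13 (0.188%). The difference of 88.2% of probes was smaller than the software's error, and 122 probes exceeded it by more than 3 times.

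Nearly all 2-fold differences lay among dim probes. Of the 62 probes at least 2-fold apart, 60 had a mean level below -2, and the 2 others were both probes of Krt8. The SD of the difference fell from 0.31 in probes with a mean level under -4 to 0.088 in those over 4. Among the 10284 probes with a mean level of 0 or more, 7 were at least 1.5-fold apart, 4 higher in line 7 and 3 in line 13. They were the 2 Krt8 probes, Krt18, a transcript without a symbol (AK137217), Cenpt, Dhx40 and Igsf21. The genes named in this and the next paragraphs for their own size, beyond those the naming rule gave, were chosen after their values were seen.

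**Figure D1:**
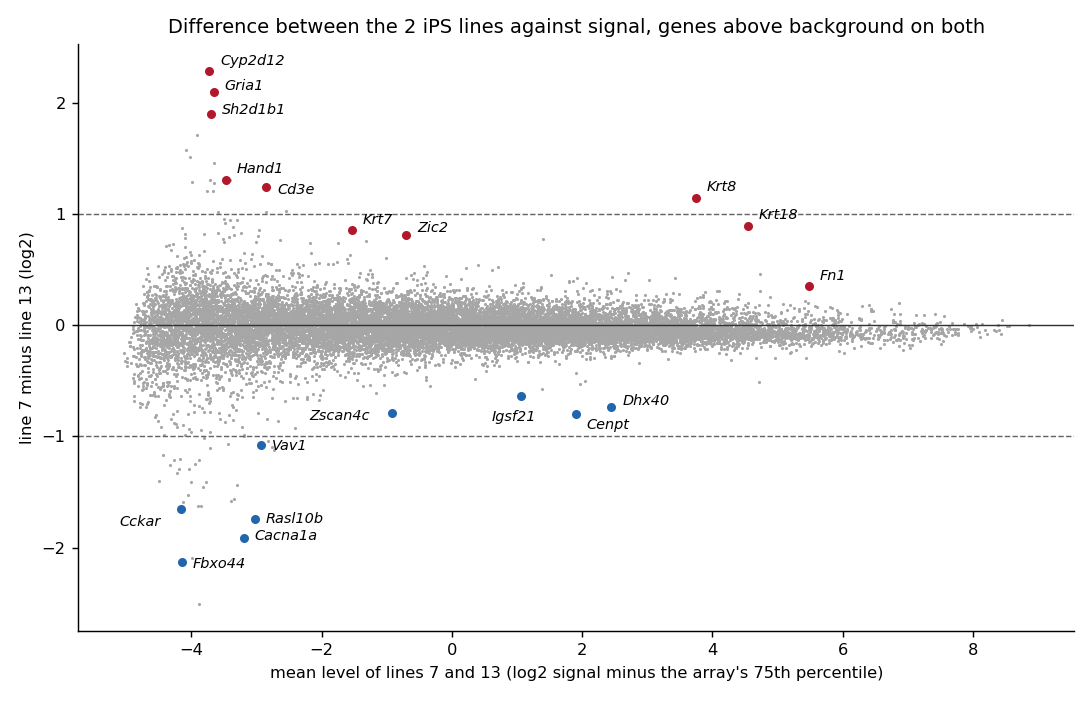
Difference between the lines (line 7 minus line 13, log2) against the mean level of both lines, 1 grey point per gene well above background on both, with named genes in red where higher in line 7 and blue where higher in line 13; dashed lines mark 2-fold. The cloud narrows with rising level, and Krt8, at 1.14, is the only gene outside the 2-fold lines at a mean level of 0 or more.

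**Figure D2:**
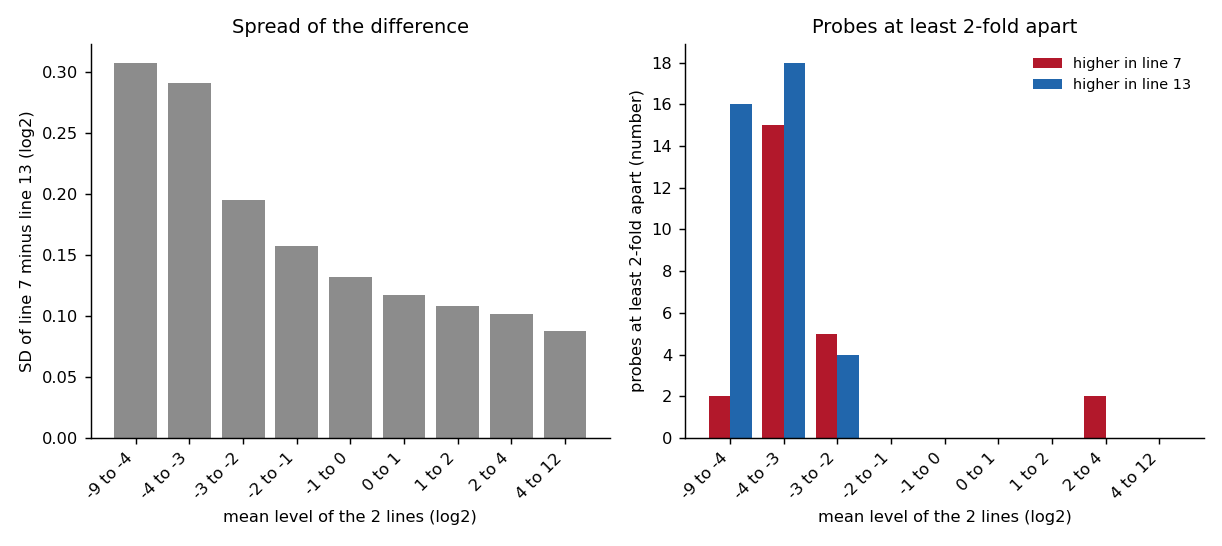
SD of the difference between the lines (left) and number of probes at least 2-fold apart (right) by mean level of both lines, for the 22814 probes well above background on both. The SD falls from 0.31 to 0.088, and 60 of the 62 probes at least 2-fold apart lie in the 3 lowest classes.

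Krt8 encodes the type II and Krt18 the type I keratin of simple epithelia. The level of Krt8 was 4.31 in line 7, 3.17 in line 13 and 2.14 in ES cells, and it was not well above background in BMMNCs (-5.04). The difference of 1.14 was 2.21-fold, against a software error of 0.20, and a second Krt8 probe gave 4.17 and 3.0, a difference of 1.17. Line 7 was thus highest and line 13 lay between it and ES cells on both probes. Krt18 followed the same order, at 4.99 in line 7, 4.10 in line 13, 2.49 in ES cells and 0.62 in BMMNCs. Its difference between the lines was 0.89, or 1.86-fold. Krt7, another type II keratin of simple epithelia, stood at -1.11 in line 7, -1.97 in line 13 and -3.44 in ES cells, a difference of 0.86 between the lines. Krt13, a keratin of stratified epithelia, was at -1.25, -1.87 and -2.13 in the same order, a difference of 0.63. Of 38 keratin genes on the array, 15 were well above background on both lines, and these 4 were at least 1.5-fold higher in line 7, with none higher in line 13. Over all genes, 0.393% were at least 1.5-fold higher in line 7 and 0.729% in line 13. The other 11 keratins lay between -0.38 (Krt75) and 0.18 (Krt19), so the difference did not extend to the whole family. Krt8 and Krt18 are neighbours on chromosome 15, with 2 genes and no protein-coding gene between them in the RefSeq table.

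The promoters of the 3 simple-epithelial keratins that moved together, and of Zscan4c, which moved the other way, are shown for comparison. Each is the 250 bases before the gene's start, 5′ to 3′ on the gene's strand, from RefSeq on GRCm38.p6: Krt8 at chr15:102004343-102004592 (minus strand), Krt18 at chr15:102027966-102028215 (plus), Krt7 at chr15:101412153-101412402 (plus) and Zscan4c at chr7:11005495-11005744 (plus). Capitals mark matches to the motifs listed after the sequences.
Krt8: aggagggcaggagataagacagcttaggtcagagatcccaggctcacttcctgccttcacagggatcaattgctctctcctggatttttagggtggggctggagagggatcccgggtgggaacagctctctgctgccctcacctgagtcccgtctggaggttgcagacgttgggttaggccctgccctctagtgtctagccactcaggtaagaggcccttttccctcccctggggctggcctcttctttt
Krt18: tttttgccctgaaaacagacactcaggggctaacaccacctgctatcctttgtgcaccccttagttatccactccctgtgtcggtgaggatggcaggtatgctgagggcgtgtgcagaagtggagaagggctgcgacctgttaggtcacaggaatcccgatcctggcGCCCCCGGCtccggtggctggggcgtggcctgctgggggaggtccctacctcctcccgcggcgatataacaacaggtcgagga
Krt7: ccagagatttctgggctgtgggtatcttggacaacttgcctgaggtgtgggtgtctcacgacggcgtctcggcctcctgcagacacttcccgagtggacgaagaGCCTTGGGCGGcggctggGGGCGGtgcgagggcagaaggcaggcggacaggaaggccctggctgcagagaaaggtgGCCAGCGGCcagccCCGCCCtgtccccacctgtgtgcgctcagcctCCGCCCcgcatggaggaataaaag
Zscan4c: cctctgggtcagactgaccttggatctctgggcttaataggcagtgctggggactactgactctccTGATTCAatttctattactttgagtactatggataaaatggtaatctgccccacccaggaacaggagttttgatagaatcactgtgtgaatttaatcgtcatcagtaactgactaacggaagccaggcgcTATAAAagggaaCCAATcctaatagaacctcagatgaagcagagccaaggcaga
Motifs were searched on both strands: the TATA box (TATAAA), the CCAAT box (CCAAT), the GC box (GGGCGG), the AP-1 site (TGANTCA) and the TFAP2 site (GCCNNNGGC). Of all 32851 promoters of the same length, 12.4%, 33.8%, 32.7%, 6.75% and 13.7% held them, in that order. No match was found in the Krt8 window. The Krt18 window held 1 TFAP2 match, starting at position -83 from the gene's start, and the Krt7 window held 4 GC boxes and 2 TFAP2 matches, of which the first TFAP2 match overlaps a GC box. The Zscan4c window held a TATA box, a CCAAT box and an AP-1 match. No motif searched was present in all 3 keratin windows. A match is a string of letters and was not tied to binding here.

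Genes of the trophoblast lineage gave a mixed picture, in which Hand1, Krt7, Rhox6 and Gata2 were higher in line 7 by more than the software's error and Fgfbp1 was higher in line 13. Of 14 listed genes on the array, 12 were well above background on both lines, 8 of them higher in line 7 by any amount (41.5% of all genes were) and 4 in line 13 (58.5% of all genes were), and the median difference was 0.16 against -0.03 over all genes. That median fell to 0.03 when only brighter probes were kept. The 4 genes over the software's error in line 7 compare with 5.45% of all genes, and the 1 in line 13 with 6.34%. Hand1, a transcription factor of trophoblast giant cells and the embryonic heart, stood at -2.82 in line 7, -4.12 in line 13 and not well above background in ES cells (-6.59), a difference of 1.30 that fell to 0.68 with another background correction. Plac1, a placental gene on the X chromosome, was at -3.58 in line 7 and not well above background in line 13 (-5.42), ES cells or BMMNCs. Its difference was at least 2.57-fold (1.36 in log2) in the main processing, and fell to 0.71 in log2 in another setting. Plac1 was measured through line 7 alone, as were 3.49% of all genes, against 0.743% through line 13 alone. Cdx2, which specifies trophectoderm, was at -1.07 and -1.15, a difference of 0.08. Eomes, which acts with it, was at -1.59 and -1.54, a difference of -0.04. Gata3 was at 0.80 and 0.65, Gata2 at 0.50 and 0.29, and Elf5 at -3.78 and -4.02, differences of 0.15, 0.21 and 0.25. Tfap2c, a factor of trophectoderm and germ cells, was at 3.28 and 3.38. The homeobox gene Rhox6 was 0.40 and the related Rhox9 0.47 higher in line 7, while Rhox5 of the same X-linked cluster was at 6.82 and 7.04.

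**Figure D3:**
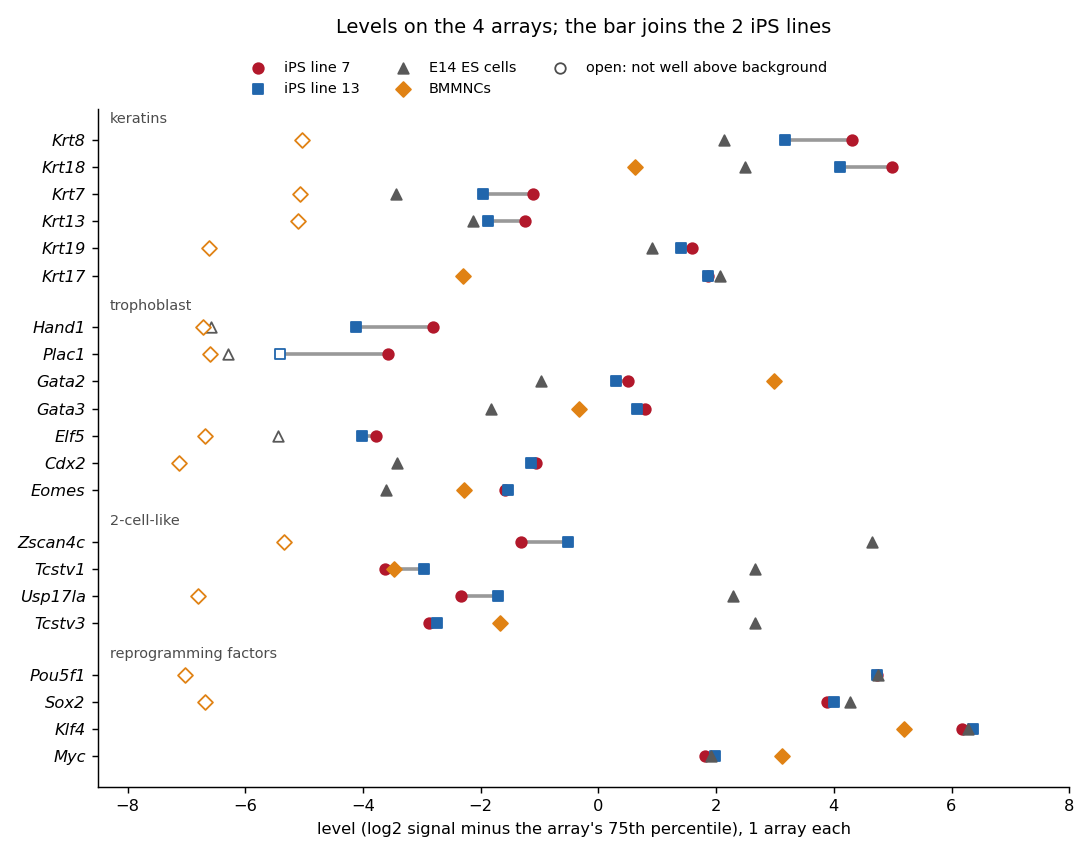
Level (log2 signal minus the array's 75th percentile) of keratin, trophoblast, 2-cell-like and reprogramming factor genes on the 4 arrays, 1 symbol per array; open symbols were not well above background, and a bar joins the 2 iPS lines. Krt8, Krt18, Krt7 and Hand1 lie furthest right in line 7, and Zscan4c, Tcstv1 and Usp17la lie further right in line 13 than in line 7. For the 4 reprogramming factors, the 2 iPS lines lie close together.

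Epithelial genes as a group differed through the keratins. All 17 listed genes were well above background on both lines, 11 of them higher in line 7 (41.5% of all genes were), with a median of 0.14, and the 3 at least 1.5-fold apart were Krt8, Krt18 and Krt7. The summed linear signal of the list, relative to the array's 75th percentile, was 103 in line 7, 76.8 in line 13 and 47.6 in ES cells. Cldn4, a tight junction claudin, was at 0.96 and 0.44, a difference of 0.53, and its relatives Cldn3, Cldn6 and Cldn7 differed by 0.16, 0.01 and 0.09. Of the junction genes shared by ES cells and epithelia, Cdh1 and Epcam did not follow the keratins, while Cldn4, at -0.87 in ES cells, had the same order. Cdh1, which encodes E-cadherin, was at 3.70 in line 7 and 3.78 in line 13, and Epcam was at 2.67 and 2.84. In bulk RNA, fewer cells of a type and less RNA per cell cannot be told apart.

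The pluripotency network was close to equal in the lines and slightly lower in line 7. Pou5f1 stood at 4.73 in line 7, 4.74 in line 13 and 4.75 in ES cells, a difference of -0.01 whose sign turned with quantile or loess scaling and in the authors' deposited table of values. Sox2 was at 3.89 and 4.0, Klf4 at 6.18 and 6.36 and Myc at 1.81 and 1.99, differences of -0.11, -0.18 and -0.17, all within the software's error of 0.20. The Myc probe was printed 10 times, and its spots did not overlap between the lines. Of 26 listed network genes, all well above background on both lines, 5 were higher in line 7 (41.5% of all genes were) and 21 in line 13 (58.5%). Their median was -0.11, with none 1.5-fold apart. The lowest were Zfp296 (4.52 and 4.81), Zfp42 (3.37 and 3.62, against 7.19 in ES cells) and Nr5a2 (1.12 and 1.37), 3 genes whose differences of -0.29, -0.25 and -0.24 exceeded the software's error. Over all genes, 5.45% exceeded it higher in line 7 and 6.34% higher in line 13. Dppa5a was at 8.55 in both lines, and the difference of Trim28 was 0.03. Markers of the later, formative and primed states were also alike: the median of 14 was -0.04. The exception was Zic2, a zinc finger factor of epiblast and neural tissue, at -0.30 in line 7, -1.11 in line 13 and -0.07 in ES cells. Its difference of 0.81 was not shared by Zic5 (-3.26 and -3.16), and Otx2 was at -2.37 and -2.21.

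3 genes of the 2-cell-like state, Zscan4c, Tcstv1 and Usp17la, were at least 1.5-fold higher in line 13, and in both lines far below ES cells. Of 13 listed genes on the array, 7 were well above background on both lines, and all 7 were higher in line 13 by any amount (58.5% of all genes were), with a median of -0.26. The same 3 exceeded the software's error. The median was -0.63 with the mean of a gene's probes and -0.17 with the looser mark of detection or only brighter probes. Zscan4c stood at -1.31 in line 7, -0.52 in line 13 and 4.64 in ES cells, a difference of -0.79, and its second probe gave -0.66. Tcstv1 was at -3.63, -2.97 and 2.66, a difference of -0.66, and another Tcstv1 probe well above background on both gave -0.86. Usp17la, which encodes a deubiquitinase, was at -2.34, -1.72 and 2.29, a difference of -0.63. Against these, Tcstv3 was at -2.88 and -2.75, Eif1a at 3.76 and 3.93, beside 3.82 in ES cells, and Sp110 was at -2.34 in both lines. Near-identical copies of Zscan4, Tcstv and Usp17l genes lie in clusters, and probes may read several copies. With 3 of the other settings (another background correction, the authors' deposited table and outlier spots kept), 6 of the 7 were higher in line 13. Pramel37 and Pramel39, from another multicopy family, showed the same order, at -2.56 and -2.71 in line 7, -1.89 and -2.06 in line 13, and 1.1 and 0.65 in ES cells.

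Germ cell genes leaned the same way by smaller amounts. Of 22 on the array, 20 were well above background on both lines, 17 of them higher in line 13 (58.5% of all genes were) and 3 in line 7, with a median of -0.20 and none 1.5-fold apart. Stra8, which is needed for entry into meiosis, was at 1.68 in line 7 and 2.11 in line 13, a difference of -0.43. Sycp3, a component of the synaptonemal complex, was at -1.22 and -0.84. Ddx4, the germ line RNA helicase, was at 1.91 and 2.21, Dazl at -1.26 and -1.06, Dmc1 at -1.19 and -0.97, and Mael at 0.93 and 1.13. Of these 17 differences, 7 exceeded the software's error, where 6.34% of all genes did so in that direction. The 3 genes higher in line 7 were Rhox6, Rhox9 and Prdm1, the last at -1.54 and -1.65.

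Fibroblast and contractile genes, each read by its brightest probe, were higher in line 7 by small amounts. All 26 fibroblast and feeder genes were well above background on both lines and higher in line 7, where 41.5% of all genes were, with a median of 0.16 and a range from 0.04 (Col1a1) to 0.39 (Fbn1). Of the 26 differences, 5 exceeded the software's error, where 5.45% of all genes did so in that direction. Col1a1, the main chain of fibrillar collagen, stood at 6.90 in line 7, 6.86 in line 13 and 6.85 in ES cells. A second Col1a1 probe gave a difference of 0.20, and another, at -1.79 and -1.60, went the other way by -0.19. Fn1, encoding fibronectin, was at 5.66, 5.30 and 5.23, and 2 further Fn1 probes gave differences of 0.42 and 0.45. Their summed linear signal was 726 in line 7, 668 in line 13, 588 in ES cells and 21.3 in BMMNCs. All 15 contractile and serum response factor (SRF) target genes were higher in line 7, with a median of 0.17. Acta2, smooth muscle actin, was at 6.96 and 6.76, Tpm1 at 5.53 and 5.31, and Vcl at 3.53 and 3.24. All 12 mesenchymal transition regulators were also higher in line 7, with a median of 0.13, from Zeb1 at 0.38 and 0.34 to Tgfb2 at 0.00 and -0.25. No member of these 3 lists was 1.5-fold apart, and 2 genes, Twist1 and Twist2, stand in both the fibroblast and the mesenchymal list. The order of all 3 lists held in each of the 10 other settings of scaling, background and filters. The part of carried-over feeder cells in this shift, and in the other differences between the lines, was not tested.

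Macrophage markers moved with the fibroblast genes. All 11 on the array were well above background on both lines and higher in line 7 (41.5% of all genes were), with a median of 0.17 (10 of 11 with another background correction). Of these, 3 exceeded the software's error, where 5.45% of all genes did. Lyz2, encoding lysozyme, stood at 4.55 in line 7, 4.27 in line 13 and 4.49 in ES cells, and Lyz1 at 1.46, 1.14 and 1.33. Cd14 was at -0.40 and -0.57, and Adgre1, a surface receptor of macrophages, at -0.69 and -0.74. The summed signal was 31.1 in line 7, 25.9 in line 13, 29.7 in ES cells and 664 in BMMNCs, and the part of such cells in the differences was not tested. Apart from Cd3e, the other blood markers named here were far below BMMNCs in both lines. Ptprc, encoding CD45, was at -3.10 and -3.20 against 5.17 in BMMNCs, and Spi1, Mpo, Elane and Hba-a1 were not well above background in either line. Of 13 pan-haematopoietic genes well above background on both lines, 9 were higher in line 7 (41.5% of all genes were) and 4 in line 13 (58.5%). The software's error was exceeded by 4 of them higher in line 7 (5.45% of all genes) and 2 higher in line 13 (6.34%). Over all 16 pan-haematopoietic genes on the array, the summed signals were 3.31 and 3.35 against 596 in BMMNCs. Vav1, a signalling adaptor of blood cells, was at -3.47 in line 7 and -2.39 in line 13 on one probe, a difference of -1.08, and at -3.18 and -3.26 on the other. Cd3e, a subunit of the T cell receptor complex, read -2.23 in line 7, -3.47 in line 13, -3.50 in ES cells and -2.50 in BMMNCs, a difference of 1.25. None of the other lymphoid genes well above background on both lines was 1.5-fold apart, and the median of the 10 lymphoid genes well above background on both lines was 0.02.

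**Figure D4:**
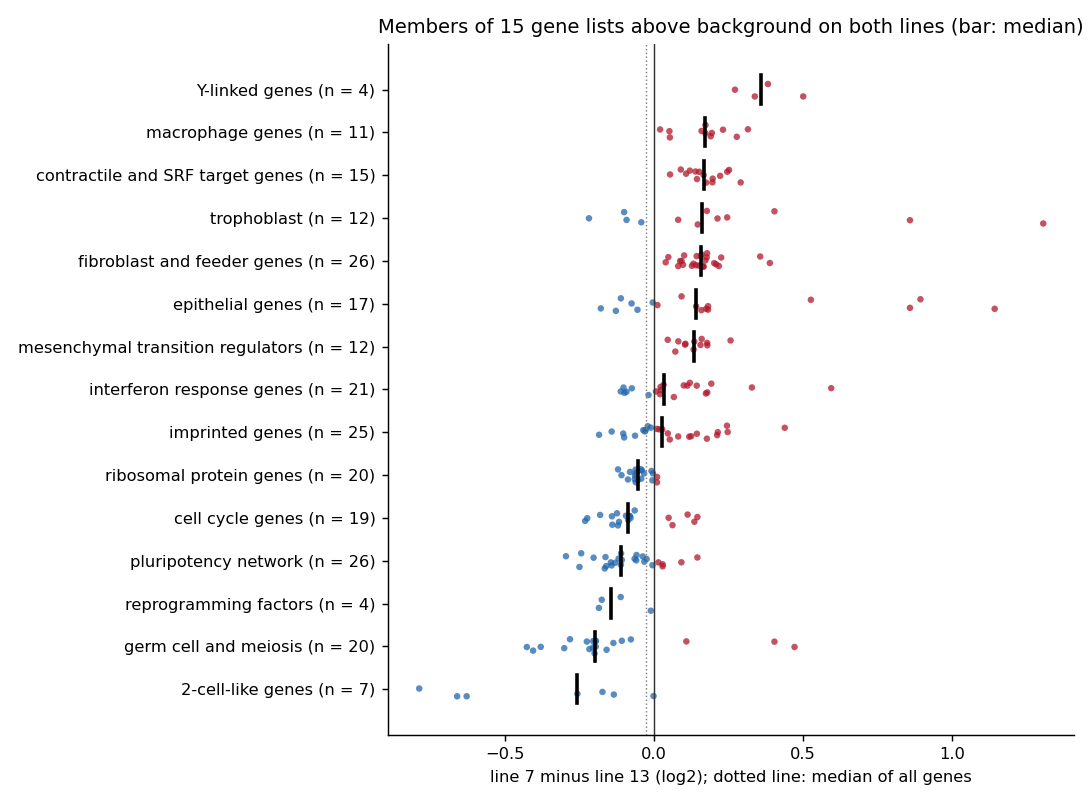
Difference between the lines (line 7 minus line 13, log2) of the members of 15 gene lists well above background on both lines, 1 point per gene, red above and blue below 0; bars mark medians and the dotted line the median of all genes. All fibroblast, contractile, mesenchymal, macrophage and Y-linked points lie right of 0, and all 2-cell-like and reprogramming factor points lie left of it.

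Of 9 Y-linked genes on the array, 4 were well above background on both lines and 5 in neither. All 4 were higher in line 7, where 41.5% of all genes were. Eif2s3y, a translation initiation factor, read 1.53 in line 7, 1.20 in line 13, 0.33 in ES cells and 2.06 in BMMNCs, and its difference was 0.34. Ddx3y, an RNA helicase, was at -0.96, -1.34, -1.89 and 0.46, a difference of 0.38. Kdm5d, a histone demethylase, was at -2.45 and -2.95, and Zfy2 at -4.40 and -4.67, differences of 0.50 and 0.27. Line 13 lay between line 7 and ES cells for all 4 genes, of which Kdm5d and Zfy2 were not well above background in ES cells, and 3 of the 4 differences exceeded the software's error (5.45% of all genes did so in that direction). Xist had no probe well above background in either line, and Rlim, its X-linked activator, was at 4.16 and 4.19. Over 20 other chromosomes with 268 to 1011 genes each, the median difference ran from -0.05 on chromosome 13 to -0.01 on chromosome 2. Chromosome 8 was at -0.03.

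Imprinted genes, expressed from 1 parental copy and known to vary among iPS lines, differed by small amounts. Of 28 on the array, 25 were well above background on both lines, 15 higher in line 7 (41.5% of all genes were) and 10 in line 13 (58.5%), with a median of 0.03. Igf2, Ndn, Grb10, Cdkn1c and Kcnq1ot1 exceeded the software's error, all 5 higher in line 7, where 5.45% of all genes did so. Igf2, a growth factor expressed from the paternal copy, was at 4.05 and 3.84, and its receptor Igf2r at 2.88 and 2.75. The Igf2 difference was 0.212 against a software error of 0.204. That Igf2 probe was printed 10 times, and its spots overlapped between the lines. Of the listed genes in and beside the Dlk1-Dio3 region, whose silencing is known from some iPS lines, 3 were matched to a probe, and these were well above background on both lines. Meg3, Rian and Mirg, its maternally expressed non-coding RNAs, were not analysed here. Dlk1 was at -1.37 in line 7 and -1.36 in line 13, and Dio3 at -0.05 and 0.04. Peg10 was well above background in line 7 (-4.35) and not in line 13 (-4.92). Kcnq1ot1, a long non-coding RNA, was at -3.08 and -3.51, a difference of 0.44. DNA methyltransferases were alike, with Dnmt1 at 2.82 and 2.86, Dnmt3a at 1.16 and 1.25 and Dnmt3b at 3.70 and 3.67.

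Among Hox genes, which pattern the body axis and are known as largely silent in pluripotent cells, the members at least 1.5-fold apart were of low signal. Of 37 on the array, 26 were well above background on both lines, 18 higher in line 7 (41.5% of all genes were) and 8 in line 13 (58.5%), with a median of 0.06. At least 1.5-fold higher were 3 in line 7 (0.393% of all genes were) and 1 in line 13 (0.729%). Hoxa5 was at -3.02 in line 7 and -3.98 in line 13, a difference of 0.96, Hoxb8 at -3.03 and -3.95, a difference of 0.92 (0.25 when both Hoxb8 probes were averaged), and Hoxd4 at -3.66 and -4.25, a difference of 0.59. Hoxd9 went the other way, at -4.92 and -3.93, a difference of -0.98, and the second probes of Hoxb8 and Hoxd9 were not well above background in either line. Neighbours in the clusters differed less, Hoxa7 and Hoxa9 by 0.07 and 0.04, Hoxb6 and Hoxb7 by 0.26 and 0.18, and Hoxb9 by 0.00. Not all Hox genes were dim. Hoxb9 stood at -0.03 in both lines and -0.21 in ES cells, and Hoxb6 at -0.06 in line 7, -0.32 in line 13 and -0.66 in ES cells.

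Of all 43 lists, those already described included, 28 had medians within 0.1 of 0, and 34 held no member 1.5-fold apart. Over the 540 distinct list genes well above background on both lines, 13 were at least 1.5-fold apart, 8 higher in line 7 (0.393% of all genes were) and 5 in line 13 (0.729%). At least 2-fold apart were 4 of them, Krt8, Hand1 and Cd3e higher in line 7 (0.108% of all genes were) and Vav1 in line 13 (0.188%). The median of 20 ribosomal protein genes was -0.05, that of 19 cell cycle genes -0.09, that of 13 heat shock chaperones -0.02 and that of 17 p53 targets -0.01. Primitive endoderm genes had a median of 0.07, which lay between 0.03 and 0.16 over the settings, with Gata6 at -0.85 and -0.97 and Sox7 at -1.61 and -1.56. Differences of the 15 well above background on both lines ran from -0.28 (Amn) to 0.27 (Col4a2). The software's error was exceeded by 2 of the 15 higher in line 7 (5.45% of all genes) and 1 higher in line 13 (6.34%). Gata4 was not well above background in either line. Interferon response genes had a median of 0.03, and 1 of 21, the interferon-inducible GTPase Iigp1, was 0.59 higher in line 7, at -2.79 and -3.39.

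The 3 genes with a mean level above 0 that were at least 1.5-fold higher in line 13 were Cenpt, Dhx40 and Igsf21. Cenpt, a protein of the inner kinetochore, stood at 1.5 in line 7, 2.30 in line 13 and 2.67 in ES cells, a difference of -0.80. Dhx40, an RNA helicase, was at 2.08, 2.81 and 2.38, and Igsf21, a synaptic adhesion protein, at 0.74, 1.37 and 2.11. Each rests on 1 probe, and line 13 was nearer to ES cells for Cenpt and Igsf21.

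The largest fold differences belonged to dim genes, most of them read by a single probe well above background. Cyp2d12, a cytochrome P450, was at -2.58 in line 7 and -4.87 in line 13, ES cells being at -4.86, a difference of 2.29 or 4.89-fold. Gria1, a subunit of AMPA glutamate receptors, was at -2.61 and -4.71, and Sh2d1b1, an adaptor of natural killer cells, at -2.75 and -4.65. In the other direction, Fbxo44, an F-box protein, was at -5.21 and -3.08, a difference of -2.13 or 4.39-fold, and its second probe gave -0.43. Cacna1a, a neuronal calcium channel, was at -4.15 and -2.24, Rasl10b at -3.90 and -2.16, and Cckar, a cholecystokinin receptor, at -4.99 and -3.33. The second probes of Gria1, Sh2d1b1, Cacna1a and Rasl10b were not well above background in either line. None of these genes belonged to a list, and 30 of the 62 probes at least 2-fold apart had no gene symbol.

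Genes with several probes showed how often a large difference was shared. Of 3788 genes with several probes well above background on both lines, 12 had a probe at least 2-fold apart, and in 1 of them, Krt8, the other probe was also at least 2-fold apart. In 8 of the 12, the other probes differed by less than 1.25-fold. Rassf4, for example, was 1.29 higher in line 7 on one probe and 0.09 on the other. Of 49 with a probe at least 1.5-fold apart, all probes passed 1.5-fold in 3, which were Krt8, Zscan4c and Tcstv1. Mdfi, an inhibitor of myogenic factors, came near, with differences of 0.64 and 0.57.

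Probes printed 10 times gave the most precise differences. Of 162 such probes well above background on both lines, 36 (22.2%) had spots that did not overlap between the lines, 25 higher in line 7 (15.4%) and 11 in line 13 (6.79%). Their SD between spots measures printing and hybridisation, not cultures. Cdkn2a, which encodes the cell cycle inhibitors p16 and p19Arf and is known as a barrier to reprogramming, was at -0.93 ± 0.034 (SD over 10 spots) in line 7 and -1.32 ± 0.031 in line 13, against -0.90 in ES cells, a difference of 0.39. Fn1 was at 5.66 ± 0.033 and 5.30 ± 0.030, and Mmp9, a matrix metalloproteinase, at -1.02 ± 0.061 and -1.39 ± 0.038. Nes, Itgb1, App and Cd44 were 0.27, 0.24, 0.26 and 0.22 higher in line 7. The largest difference of all 162 probes was that of Mitf, a transcription factor of melanocytes and osteoclasts, which was dim and 0.64 higher in line 13, at -4.88 ± 0.21 in line 7 (8 spots) and -4.24 ± 0.16 in line 13 (9 spots). Also higher in line 13, Bmp7, a bone morphogenetic protein, was 0.31 apart, at 0.40 ± 0.062 against 0.09 ± 0.056, the Notch ligand Dll1 was 0.23 higher, and Myc was 0.17 higher. None of the 162 probes was 2-fold apart, and 4 reached 1.25-fold.

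**Figure D5:**
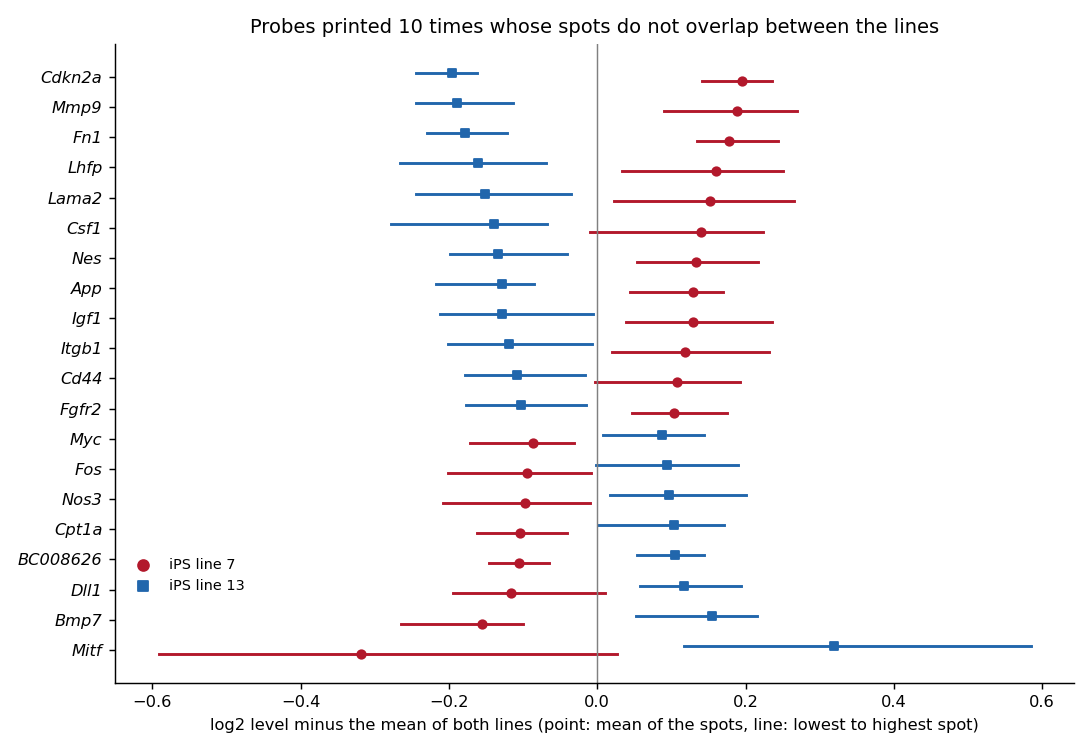
Level of probes printed 10 times, relative to the mean of both lines (log2), for 20 of the 36 probes whose spots do not overlap: points are means over spots and lines run from the lowest to the highest spot. Fn1 and Cdkn2a lie right of 0 in line 7, and Mitf, Bmp7, Dll1 and Myc lie right of 0 in line 13.

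Genes lit in a single line were dim and were read as bounds. A gene well above background in line 7 only was set against the lowest signal that counted as above background in line 13, or its own value there if higher, and the reverse for line 13. That lowest signal was 25.6 in line 7 (a level of -5.38) and 34.8 in line 13 (-4.94), so more dim genes could pass in line 7. Of all genes, 1164 (3.49%) passed in line 7 only and 248 (0.743%) in line 13 only. By the bound, 91 probes in line 7 (0.221% of all) and 164 in line 13 (0.398%) were at least 2-fold higher, and 544 of the 1474 probes in line 7 had a bound below 1-fold. The genes with a symbol at a bound of at least 2-fold numbered 26 in line 7 and 62 in line 13. Among these genes, the lowest level that reached a 2-fold bound was -3.94 in line 7 (Defa21) and -4.38 in line 13 (Alas2). The unequal lowest signals thus made a 2-fold bound harder to reach in line 7. The counts by bound cannot be compared between the lines.

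In line 7 only, the highest bounds were those of Cct8l1, a chaperonin-like gene, at least 5.17-fold (levels -2.57 and -7.10), and Ackr1, a chemokine receptor of red cells and venules, at least 5.01-fold (-2.62 and -5.03). On the same Ackr1 probe, ES cells stood at -3.01 and BMMNCs at 0.41, both well above background. Arnt2, a basic helix-loop-helix PAS factor, was at least 4.77-fold higher (-2.63 and -4.89), though ES cells stood at -2.95. Duoxa2, Fmo2 and Spata16 followed at 4.16, 3.94 and 3.92-fold or more. The second probes of Ackr1 (-7.24 in line 7 and -6.82 in line 13) and Fmo2 (-7.60 and -7.17) were not well above background in either line. In line 13 only, 4 of the 6 highest were olfactory receptors: Olfr1170 at least 5.30-fold (-5.83 and -2.98), Olfr282 at least 4.94-fold, Olfr1451 at least 4.86-fold and Olfr54 at least 4.75-fold. Olfactory receptors, the odorant receptors of the nose and the largest mouse gene family, made up 15 of the 62 such genes (24.2%) and 885 of all 16356 genes with a symbol (5.41%). Among the 4726 genes with a symbol that were not well above background on both lines, the share was 17.4%, and in the matching group of line 7 it was 2 of 26 (7.69%). Ms4a3, a membrane protein of myeloid precursors, was at -3.17 in line 13 and 5.05 in BMMNCs, and at least 4.64-fold higher in line 13 than in line 7. Ins1, an insulin gene, was at -3.26 in line 13 and at least 4.35-fold higher. Alas2, the first enzyme of haem synthesis in red cells, was at -4.38 in line 13 and 6.96 in BMMNCs, at least 2.0-fold higher than in line 7, while Hba-a1 was not well above background in either line. The bounds named in this paragraph hold for the main processing only. For each of these genes, the difference fell below its bound in size in some other setting. In log2, it fell to 1.93 for Cct8l1 (bound 2.37) and to -0.71 for Olfr282 (bound -2.30).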

How the data were processed

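Cy3-labelled RNA was hybridised to 1-colour Agilent arrays, per the labels' protocols, and read with Agilent Feature Extraction 9.5, per the submitters' processing notes. The intensity deposited for each spot had been corrected for background and for spatial trend by the scanner software, which gives spots near background a small positive stand-in, per the file headers. The authors' deposited table of intensities was found to be those signals after division by a constant for each array, linear and without centring of genes, with medians of 135.9 (line 7) and 133.6 (line 13); how the constants were set is unknown. Other values were computed here with Python 3.11.15, pandas 2.3.3 and numpy 2.4.6.

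Control and outlier spots were dropped (14 probes were lost), spots of a probe were averaged as log2, and the array's 75th percentile was subtracted. A probe counted as well above background when the software had marked a share of 0.5 or more of its spots so. No spot was saturated. Accessions were matched without versions to the RefSeq table of GRCm38.p6, which served for names, chromosomes and gene order because the array was designed on another build; 22948 of 41160 probes had a symbol. Of 667 distinct list genes, 614 were matched on the array, and the others were not analysed here. Sums of signal over a list add 2 to the power of the level. The software's error of a difference combines both arrays' reported errors per probe.

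The members and lists were chosen with earlier results of these data known. The naming rule took the 4 reprogramming factors, 12 genes at each end of the difference (those with a symbol and a signal over background in both lines), the 6 highest bounds in each single line, list members at least 2-fold apart and the first 2 of each list. Scripts were tested on simulated data. With 1 array a line no culture is replicated, and precision is limited by the number of arrays. Alternatives covered scaling, background, the filter on dim probes, outlier spots, the fold threshold and the mean of a gene's probes, with limma 3.58.1 in R 4.3.3 for normexp and statsmodels 0.14.6 for loess.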

Additional observations from a re-analysis of the deposited data

How the results depend on the processing

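Counts are given as probes at least 2-fold higher in line 7 and in line 13, then probes well above background in line 7 only and line 13 only with a bound of 2-fold; the main values were 24, 38, 91 and 164, and the SD of the difference 0.18. They stayed within 1.5 times under median scaling, quantile normalization, loess between the lines, the authors' table and outlier spots kept. With normexp on the median signals (offset 50), chosen after seeing the data because the files hold no mean signals, they were 6, 5, 40 and 61. With the software's looser mark (positive and significant), they were 268, 333, 401 and 440, and the SD was 0.34. With no filter, 669 and 773 were 2-fold apart and the SD was 0.46; bounds cannot be set there. Among brighter probes, over the median level of -0.40, 2 and 0 were 2-fold apart, both of Krt8. A threshold of 1.5-fold gave 89, 151, 183 and 261, and one of 3-fold gave 4, 11, 24 and 76. Normexp adds an offset to dim signals and the looser marks admit dimmer probes; the cause of the changes was not tested further. Of 21 named genes at least 2-fold apart, all kept their sign in each setting that measured them, 6 stayed 2-fold with normexp, 14 with the mean of a gene's probes and 21 in the other settings that kept them. Krt8 lay between 1.13 and 1.19 throughout. The median of all genes moved between -0.10 and 0.00. No paired analysis was possible because each line has 1 array.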
